A study of Mus musculus with 2 samples.

Results

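The genes described here are 35 members of the interferon response and of antigen processing, chosen by name as interferon-stimulated genes, IRF and STAT transcription factors, interferon-induced GTPases and parts of the antigen processing machinery. A probe set was taken if its annotation named 1 of these genes and no other gene, which gave 54 of 45037 probe sets and 33 of the 35 genes. Isg15 shared its probe set with another gene and Ifi44 had no probe set of its own, so neither entered the counts. The samples were primary osteoblasts, the bone-forming cells, freed from the calvariae of C57BL/6 mice aged 5 days by collagenase and dispase and grown for 3 days in medium with 10% serum. After a night without serum, 1 culture received serum-free medium with 1 mM phosphate (the control) and 1 received the same medium raised to 4 mM with sodium phosphate at pH 7.2, both for 6 h. Sodium came with the phosphate, so the 2 cannot be told apart. How many mice were used, and whether their cells were pooled, was not given in the sources used here. With 1 array per condition there are no replicates and no tests, and the values describe these 2 arrays alone.

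Interferons are secreted proteins that warn cells of infection. Type I interferons signal through the kinases Jak1 and Tyk2 to a complex that includes Stat2 and Irf9 and binds interferon-stimulated response elements in promoters. Interferon gamma acts through gamma-activated sequences. Cells that meet no infection keep a low resting level of this pathway. Antigen processing overlaps with it, since the immunoproteasome subunits and the TAP peptide transporter, which supply MHC class I molecules with peptides, are interferon-induced. In bone, interferons are known for restraining the formation of osteoclasts, the bone-resorbing cells.

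Signals are MAS5 intensities, whose scaling gave both arrays the same average, and signals under the pooled median of 21.5 were raised to this floor. In the control 49.0% of probe sets lay above the floor, and in phosphate 51.0%. The 3′ over 5′ signal of actin, which grows as RNA degrades, was 1.36 and 1.43. Precision is limited by having 2 arrays, and the only measure of error was technical, the spread of log2 ratios between probe sets of the same gene. Its standard deviation (SD) per probe set was 0.42 where the dimmer of the 2 signals was below 100, 0.26 from 100 to 400 and 0.16 above 400. In bulk RNA, fewer cells of a type and less RNA per cell cannot be told apart.

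Most members differed little between the arrays, and those that differed most were lower in 4 mM phosphate. Of the 33 genes, 29 were measured, meaning above the floor on 1 array or more, and all 29 were above it on both. Mx1 and Mx2, antiviral dynamin-like GTPases, Oasl2, a relative of the oligoadenylate synthetases, and the RNA helicase gene Dhx58 stayed below the floor on both arrays. At 1.5-fold, 6 of the 29 were lower, where 12.1% of 12241 measured genes were, and 1 was higher, where 7.25% of all genes were. At 2-fold, 2 were lower, against 2.92% of all genes, and none was higher, against 2.28%. The remaining 22 members (75.9%) lay within 1.5-fold, as did 80.6% of all genes. The median log2 ratio was −0.25 for the members and −0.06 for all genes, and 19 of 29 members (65.5%) against 55.9% of all genes had a ratio below 0. Ddx58, Ifit1, Usp18 and Psmb9 lay more than 2 technical SD from 0, all of them lower. They make up 13.8% of the members, while 22.5% of all genes above the floor on both arrays lay that far from 0.

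**Figure D1:**
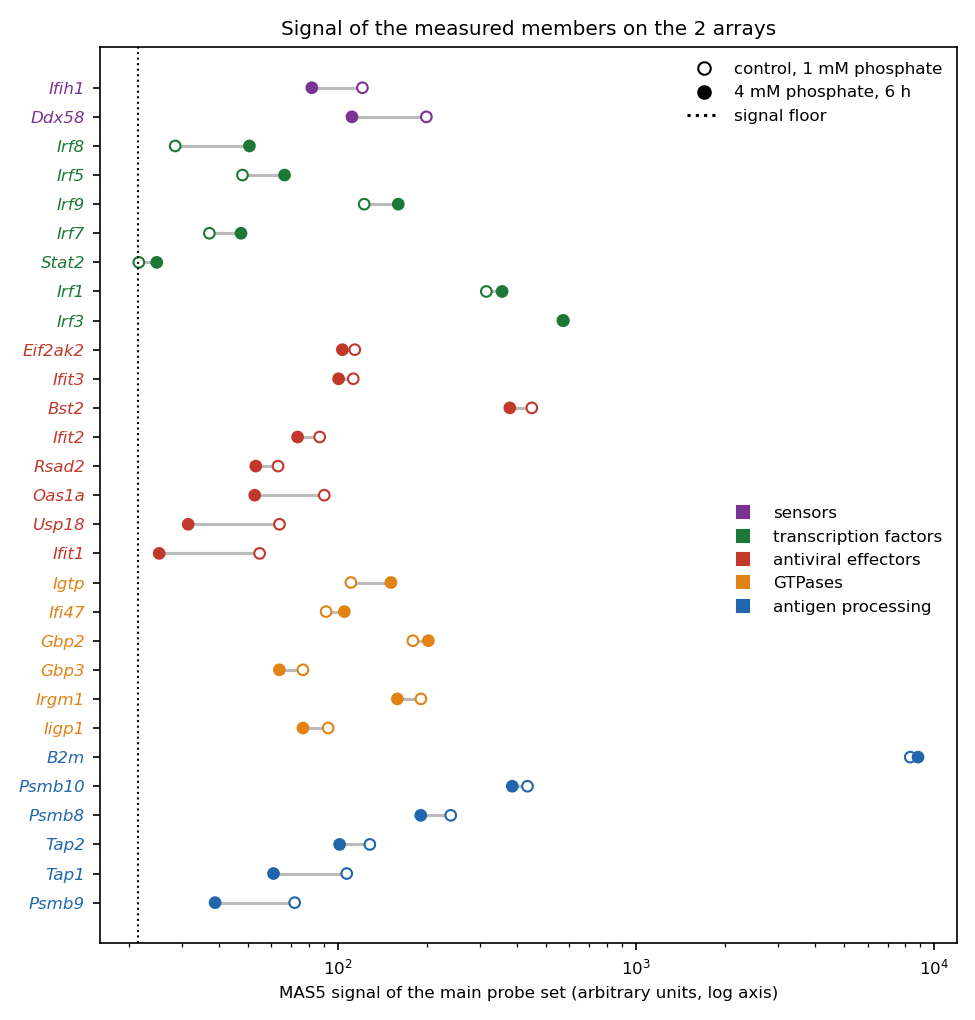
MAS5 signal of the main probe set of each of the 29 measured members (horizontal log axis, arbitrary units) in the control culture (open circles) and in 4 mM phosphate (filled circles), coloured by role, with the signal floor of 21.5 as a dotted line. Signals can be compared between the arrays for 1 gene, not between genes; every sensor and antiviral effector has its filled circle on the left.

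Of the sensors, which recognise viral RNA in the cytoplasm, both measured genes were lower in phosphate, where 55.9% of all genes had ratios below 0. Ddx58, which encodes the helicase RIG-I, gave signals of 199 (control) and 112 (phosphate). This was 1.78-fold lower, a log2 ratio of −0.83, or 3.22 technical SD from 0. A dimmer probe set of Ddx58 went the same way, from 54.4 to 38.0 (log2 ratio −0.52). Ifih1, encoding the related helicase MDA5, had 121 in the control and 82.0 in phosphate, a log2 ratio of −0.56, just short of 1.5-fold.

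Most of the transcription factors ran the other way. Of 7 genes, 6 had a ratio above 0 and 1 below it (14.3%, against 55.9% of all genes), with a median log2 ratio of 0.35. Only 1 (14.3%, against 7.25%) reached 1.5-fold. With poly-A spikes as the reference for scaling, 2 of 7 stayed above 0 and the median was −0.11. With the floor at the 65th percentile 3 were measured, 2 above 0 and 1 below, with a median of 0.18. None reached 1.5-fold under either setting, with the floor added as a pseudocount, or by the median of a gene's probe sets. Irf8, a factor of myeloid cells and of the interferon gamma response, had 28.5 in the control and 50.6 in phosphate on its main probe set, which is a log2 ratio of 0.83. A second probe set gave 30.8 and 29.4 (log2 ratio −0.07), so the 2 probe sets of this dim gene disagreed. Irf5, which acts downstream of Toll-like receptors, had signals of 48.0 and 66.4 (log2 ratio 0.47), and its second probe set went from 39.3 to 47.2.

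Irf9, the DNA-binding part of the type I interferon complex, had 123 in the control and 160 in phosphate (log2 ratio 0.38), 1.48 technical SD from 0. Irf7, the factor that amplifies type I interferon production, had 37.1 and 47.4 (log2 ratio 0.35), within 1 technical SD. Irf1, which drives many interferon gamma targets and the immunoproteasome genes, had 316 and 356 (log2 ratio 0.18). Stat2, the partner of Irf9, lay at the floor, with 21.5 in the control and 24.7 in phosphate. Irf3, which switches on interferon beta and is regulated by phosphorylation of its protein, had 572 and 570 on its brightest probe set. The 4 probe sets of Irf3 ranged in log2 ratio from −0.18 to 0.41, the highest on a dim one. Thus 1 of the 7 factors was past 1.5-fold and none was past 2 technical SD.

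All 8 measured antiviral effectors had ratios below 0, where 55.9% of all genes had one, with a median log2 ratio of −0.25. This also held for all 8 after quantile normalization or loess correction. Scaling to the poly-A spikes lowers every ratio, so it could not have changed the count. With no floor 10 of 11 measured effectors were below 0, and with the floor at the 35th percentile 9 of 10. With the floor at the 65th percentile 5 were measured, all 5 below 0 and none 1.5-fold lower. Ifit1, an effector that binds viral RNA lacking the normal cap methylation, had the lowest ratio of all members, with 54.8 in the control and 25.2 in phosphate. This was 2.17-fold lower (log2 ratio −1.12, 2.66 technical SD), and the phosphate signal was close to the floor. Ifit2 and Ifit3, its relatives, differed less: Ifit2 had 87.1 and 73.5 (log2 ratio −0.25) and Ifit3 had 113 and 101 (log2 ratio −0.16). Usp18, the protease that removes ISG15 from proteins and dampens the type I receptor, had 63.9 in the control and 31.5 in phosphate, 2.02-fold lower (log2 ratio −1.02, 2.41 technical SD). Ifit1 and Usp18 were the 2 members past 2-fold, and each was read by 1 probe set.

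Oas1a, an oligoadenylate synthetase that activates RNase L, had 90.3 and 52.7 (log2 ratio −0.78, 1.84 technical SD). Rsad2, which encodes the radical enzyme viperin, had 63.2 in the control and 53.2 in phosphate (log2 ratio −0.25), and its 3 probe sets ranged from −0.33 to −0.04. Eif2ak2, the kinase PKR, which halts translation on sensing viral RNA, had 114 and 104 on its main probe set (log2 ratio −0.14) and ratios down to −0.52 on its 2 others. Bst2, the membrane protein tetherin that holds back budding virus, had 448 and 378 (log2 ratio −0.25). Apart from Ifit1, Usp18 and Oas1a, the effectors thus lay within 1.5-fold and within 1 technical SD on their main probe sets.

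**Figure D2:**
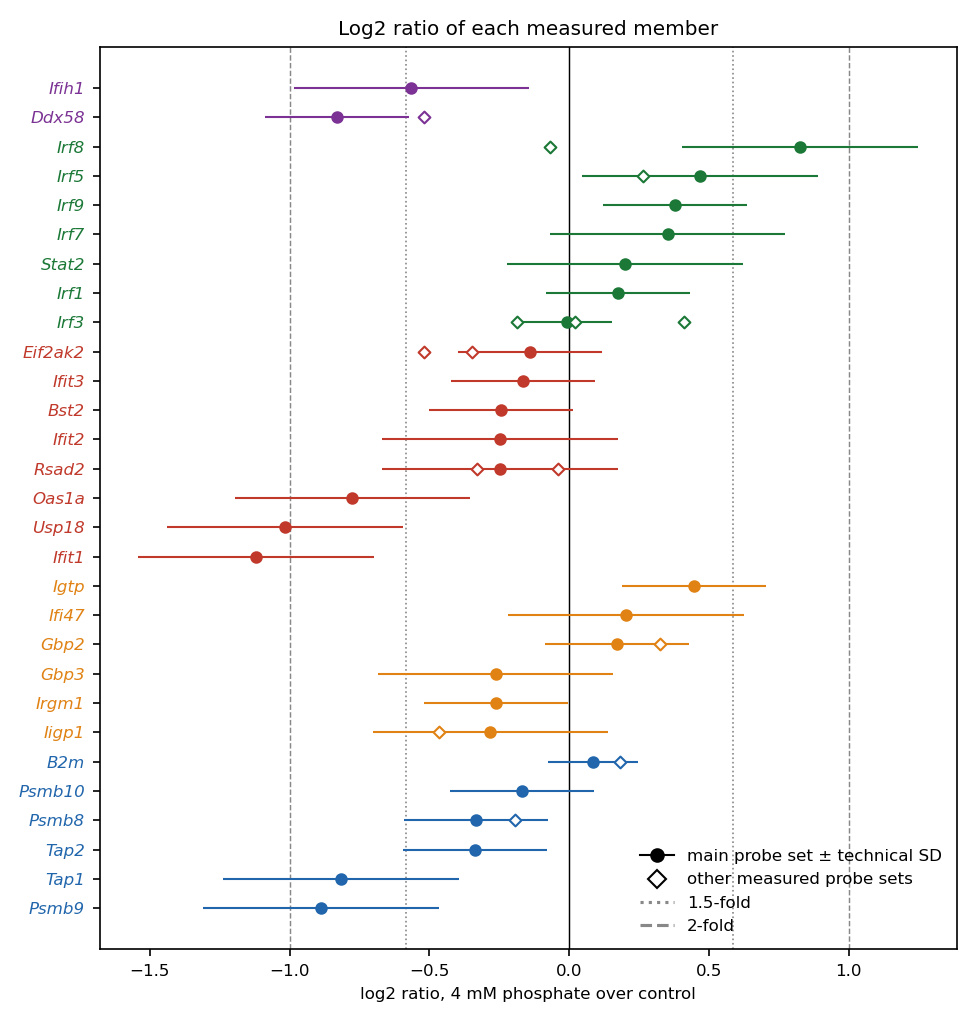
Log2 ratio of 4 mM phosphate over control (horizontal axis) for each measured member, coloured by role: filled circles are main probe sets with bars of 1 technical SD, open diamonds are the gene's other measured probe sets, and dotted and dashed lines mark 1.5-fold and 2-fold. Sensors and antiviral effectors sit left of 0, down to −1.12 for Ifit1, while the transcription factors sit at 0 or to its right, with Irf8 at 0.83 and its other probe set at −0.07.

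The interferon-induced GTPases, which attack the membranes around intracellular pathogens, split evenly. Of 6 genes, 3 had ratios above 0 and 3 below, where 55.9% of all genes had ratios below 0. None reached 1.5-fold, and 80.6% of all genes lay within 1.5-fold. The median log2 ratio was −0.04. Igtp was the highest, with 111 in the control and 151 in phosphate (log2 ratio 0.45, 1.73 technical SD). Gbp2, a guanylate-binding protein, had 179 and 202 (log2 ratio 0.17) and 0.32 on its other probe set. Ifi47 had 91.5 and 105 (log2 ratio 0.20). Igtp, Gbp2 and Ifi47 were therefore the members of this family with higher signals in phosphate, but with the poly-A spikes as reference all 6 ratios were below 0.

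On the lower side, Irgm1, a regulator of the immunity-related GTPases, had 190 and 159 (log2 ratio −0.26). Gbp3 had 76.5 and 63.8 (log2 ratio −0.26), and Iigp1 had 93.0 and 76.5 (log2 ratio −0.28) with −0.47 on its other probe set. All 3 differed by about 1 technical SD or less on their main probe sets.

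In antigen processing, 5 of 6 genes (83.3%, against 55.9% of all genes) had ratios below 0, and 2 (33.3%, against 12.1%) were more than 1.5-fold lower. After quantile normalization or loess correction all 6 were below 0. With the floor at the 65th percentile, 1 was more than 1.5-fold lower. Psmb9, an immunoproteasome subunit that replaces Psmb6, had 71.8 in the control and 38.8 in phosphate, 1.85-fold lower (log2 ratio −0.89, 2.10 technical SD). Tap1, the first chain of the peptide transporter, had 107 and 61.0, 1.76-fold lower (log2 ratio −0.82, 1.94 technical SD). The 3 other probe sets of Tap1 were below the floor on both arrays. Psmb9 and Tap1 are neighbours read in opposite directions on chromosome 17.

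The next coding genes along that stretch, Psmb8 and Tap2, differed less. Psmb8, the immunoproteasome counterpart of Psmb5, had 240 in the control and 190 in phosphate (log2 ratio −0.33), and Tap2, the second transporter chain, had 128 and 102 (log2 ratio −0.34). Psmb10, the counterpart of Psmb7, had 434 and 386 (log2 ratio −0.17). B2m, the light chain of MHC class I, was bright and nearly equal, with 8345 and 8861 on the brighter probe set and log2 ratios of 0.09 and 0.18 on its 2 probe sets. Its ratio was slightly below 0 after quantile normalization or loess correction, by at most 0.07. The order along the chromosome, Psmb9, Tap1, Psmb8 and Tap2, thus ran with log2 ratios of −0.89, −0.82, −0.33 and −0.34.

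Promoter sequences are shown for the members at least 1.5-fold different whose RefSeq promoter holds a searched motif, to show where these letters lie. The windows run from 250 bases before to 50 bases after the start of a transcript in GRCm38.p6, and 29 of the 35 members had a window. The search covered both strands. The core of the interferon-stimulated response element (ISRE) was taken as GAAA, any 2 bases and GAAA, the core of the gamma-activated sequence as TTCNNNGAA, which reads the same on both strands, and the core of NF-kB sites as GGG, any 2 bases and TTTCC. Below are 180 bases before and 20 bases after the start, 5′ to 3′ on the gene's own strand, with motif letters in capitals. Ifit1 lies at chr19:34640709-34640908 on the plus strand, Ddx58 at chr4:40239806-40240005 on the minus strand, Oas1a at chr5:120907506-120907705 on the minus strand and Irf8 at chr8:120736178-120736377 on the plus strand.
Ifit1: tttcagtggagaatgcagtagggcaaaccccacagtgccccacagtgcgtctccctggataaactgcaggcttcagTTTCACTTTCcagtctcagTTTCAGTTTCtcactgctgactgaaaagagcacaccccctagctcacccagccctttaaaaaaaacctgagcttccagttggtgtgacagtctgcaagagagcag
Ddx58: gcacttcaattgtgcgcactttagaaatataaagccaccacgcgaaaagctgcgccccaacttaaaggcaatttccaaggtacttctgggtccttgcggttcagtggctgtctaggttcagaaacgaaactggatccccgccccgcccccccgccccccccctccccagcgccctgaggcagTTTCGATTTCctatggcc
Oas1a: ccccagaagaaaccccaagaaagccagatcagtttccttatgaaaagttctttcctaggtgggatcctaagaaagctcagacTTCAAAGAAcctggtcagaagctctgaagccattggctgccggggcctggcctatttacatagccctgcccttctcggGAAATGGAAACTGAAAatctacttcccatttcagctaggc
Irf8: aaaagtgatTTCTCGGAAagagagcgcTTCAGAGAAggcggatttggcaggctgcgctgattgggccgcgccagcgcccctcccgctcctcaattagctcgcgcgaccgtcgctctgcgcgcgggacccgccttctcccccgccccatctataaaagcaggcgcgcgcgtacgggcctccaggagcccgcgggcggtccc

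In the Ifit1 promoter the ISRE core occurred at 2 places, at bases −104 to −95 and −85 to −76 from the start, both on the minus strand. Ddx58 held it at bases 3 to 12, inside the transcript. Oas1a held 2 overlapping copies between −20 and −5 and a gamma-activated core at −98 to −90. Irf8, the higher member, held no ISRE core but 2 gamma-activated cores, at −171 to −163 and −153 to −145. Psmb9 and Tap1 held none of these motifs in their windows, and Usp18 had no window. The 225 bases between the starts of Psmb9 and Tap1, which both genes share, are shown because the neighbours had like ratios, a choice made after their values were seen. They lie at chr17:34187331-34187555 and are given on the plus strand, in the direction of Tap1.
Psmb9-Tap1: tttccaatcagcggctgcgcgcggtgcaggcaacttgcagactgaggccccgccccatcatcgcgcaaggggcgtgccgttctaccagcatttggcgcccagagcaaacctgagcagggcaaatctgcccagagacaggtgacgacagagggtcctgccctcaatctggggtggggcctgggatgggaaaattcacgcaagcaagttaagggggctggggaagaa

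The ISRE core was found in 15 of 29 members (51.7%), against 3.99% of 27025 genes with a window and 3.44% of all 32851 windows. The members were chosen as interferon genes, so a high share is a property of the list. Of the 14 measured members that hold it, 10 had ratios below 0, with a median log2 ratio of −0.25. Of the 12 with a window that do not, 6 had ratios below 0, with a median of 0.08. The other measured members, Usp18, Iigp1 and Tap2, had no window and enter neither group. Their log2 ratios were −1.02, −0.28 and −0.34. The split by the core follows role in part, so motif and role cannot be told apart here. Irf1, Irf3, Irf5, Irf7, Irf8 and Irf9 lack the core, while Ddx58, Ifih1, Ifit1, Ifit3, Oas1a, Rsad2, Eif2ak2 and Bst2 hold it. Ifit2, Psmb8, Psmb9, Psmb10 and Tap1, which had ratios below 0, also lack it. Among all measured genes with a window, the median was −0.07 for the 349 that hold the core and −0.06 for the rest. In both of these groups 55.9% had ratios below 0. The gamma-activated core was found in 8 of 29 members (27.6%), against 9.55% of genes and 8.30% of windows. The 8 holders, all measured, had a median log2 ratio of −0.19 with 5 below 0, and the 18 other measured members one of −0.17 with 11 below 0. The NF-kB core was found in 1 member, B2m, against 1.89% of genes and 1.63% of windows. A match describes letters in a window and shows no binding.

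The members and their wider pathway can be set side by side through lists of other interferon and antigen presentation genes. Of 12 genes for interferons and their receptors, 5 were measured, all of them receptor chains. None was 1.5-fold different on its main probe set, where 80.6% of all genes lay within 1.5-fold. The highest and lowest were Il10rb at a log2 ratio of 0.23 and Ifngr2 at −0.07, with Ifngr1 at 0.19 and Ifnar2 at −0.05 next to them. Other probe sets reached 0.78 for Ifnar2 and 0.45 for Ifngr2. By the median of a gene's probe sets, all 5 receptor genes were above 0. The interferon genes Ifna1, Ifna2, Ifna4, Ifnb1 and Ifng and the receptor gene Ifnlr1 were below the floor on both arrays on the probe sets naming only them (named here after their values were seen). No detection calls were used.

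Of 13 measured genes listed under JAK-STAT signalling and its feedback, 4 (30.8%, against 7.25% of all genes) passed 1.5-fold upward and 0 (against 12.1%) downward. The median log2 ratio was 0.44, but −0.02 when scaled to the poly-A spikes. The list also holds the IRF gene Irf2, whose value is the median, and Irf2bp1 and Irf2bp2. Irf2bp2 was among the 4 (log2 ratio 0.63, named after its values were seen), and its probe sets ranged from −0.19 to 0.63. Without probe sets ending in _x_at or _s_at, 12 genes were measured, 4 were higher and 1 lower, and the median was 0.33. Socs3 and Socs1, inhibitors that block receptor-bound JAK kinases, were 5.13-fold and 3.54-fold higher, with signals of 460 and 2360 for Socs3 and of 32.4 and 115 for Socs1. Stat3, the main target of interleukin-6 family receptors, was 2.05-fold higher (692 and 1419). Tyk2, the kinase of the type I receptor, and Pias1, an inhibitor of STAT signalling, were lowest at −0.37 and −0.15. Their probe sets disagreed, with 0.26 on the other one of Tyk2 and a range from −0.62 to 0.34 for Pias1.

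Other interferon-induced genes went both ways. Of 32 measured, 21 (65.6%, against 55.9% of all genes) had ratios below 0, 6 (18.8%, against 12.1%) were at least 1.5-fold lower and 2 (6.25%, against 7.25%) at least 1.5-fold higher, with a median log2 ratio of −0.25. Xaf1, a pro-apoptotic interferon target, had 200 in the control and 85.5 in phosphate (log2 ratio −1.23), and Rtp4, a chaperone of membrane receptors, had 202 and 100 (log2 ratio −1.02). Ifi204, a DNA-binding protein of the HIN-200 family, and Irgm2, a GTPase related to Irgm1, were the 2 higher genes, at log2 ratios of 0.86 and 0.71. Among 9 measured adaptors and kinases of nucleic acid sensing, Myd88, the adaptor of Toll-like and interleukin-1 receptors, was highest at 0.86 with Mavs next at 0.28, and Tlr3, a receptor for viral RNA in endosomes, was lowest at −0.78 with Tank next at −0.39. The other probe set of Mavs was at −0.40.

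**Figure D3:**
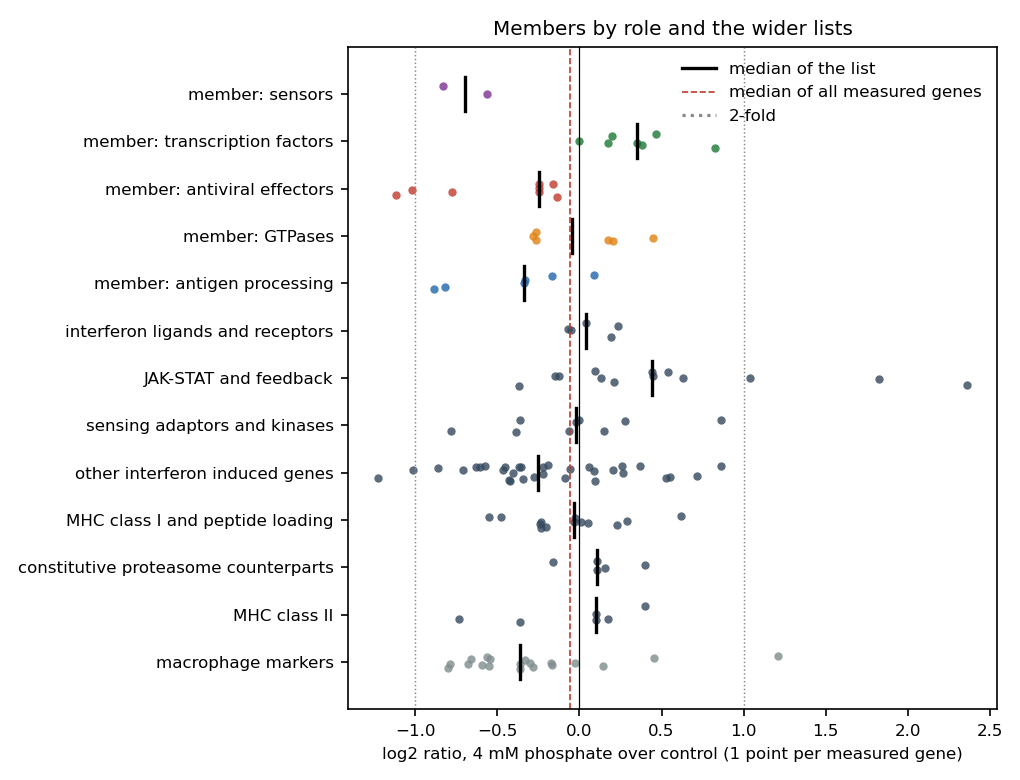
Log2 ratio of 4 mM phosphate over control (horizontal axis) for each measured gene of the members' roles, of the wider lists and of the macrophage markers, 1 point per gene; black bars are list medians, the red dashed line is the median of all measured genes (−0.06) and dotted lines mark 2-fold. Points with 1 array at the floor stand at their bound. The medians run from −0.70 for the 2 sensors to 0.44 for JAK-STAT and feedback.

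The MHC class I and peptide loading genes outside the member list were nearly level on their main probe sets. Of 13 measured, none was 1.5-fold lower on its main probe set, against 12.1% of all genes, and 1 (7.69%, against 7.25%) was higher. This was the MHC class I regulator gene Nlrc5, which was below the floor in the control and 33.0 in phosphate, so at least 1.54-fold higher. The lowest were the non-classical class I genes H2-M3 and Cd1d1, at log2 ratios of −0.55 and −0.48, and Calr, a loading chaperone, followed Nlrc5 at 0.29. The lowest probe set of Calr was at −0.05. The 6 measured probe sets of H2-D1 ranged from −1.10 to 0.11, and the lower one of Erap1 was at −0.59 (both named after their values were seen). Of 5 constitutive proteasome genes, none was 1.5-fold different, where 80.6% of all genes lay within 1.5-fold, and the median log2 ratio was 0.11. Psmb7 was highest at 0.40, followed by Psmb5 at 0.15, while the lowest were the proteasome activator genes Psme3 at −0.16 and Psme4 at 0.11. The other measured probe set of Psme3 was at 0.24. Psmb6, which Psmb9 replaces, had 3353 in the control and 3618 in phosphate, a log2 ratio of 0.11 (named because Psmb9 is a member). Of 6 measured MHC class II genes, H2-DMa and Ctss were lowest at −0.73 and −0.36, and H2-Eb1 (a bound) and Cd74 highest at 0.40 and 0.17.

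Several members are also expressed by macrophages, among them Irf5 and Irf8, and macrophage markers were present on both arrays. Irf5 and Irf8 had log2 ratios above 0 on their main probe sets, 0.47 and 0.83, with −0.07 on the other probe set of Irf8. All 8 osteoblast markers with a probe set were above the floor, with a median log2 ratio of 0.16. The brightest in the control, Col1a2 and Ibsp, had log2 ratios of 0.21 and 0.11. Dmp1 and Mepe, matrix proteins of late osteoblasts and osteocytes, were 2.85-fold and 2.52-fold higher in phosphate, and Sp7 and Pth1r were lowest at −0.39 and −0.24. Of 6 osteoclast markers 3 were measured, Ctsk at a log2 ratio of 0.10, Acp5 at −0.15 and Mmp9 at −0.35. None of the 5 lymphocyte, 5 dendritic cell and 6 endothelial markers with a probe set was above the floor. Of 20 macrophage markers, 19 were measured, and only Itgam was below the floor. In phosphate 16 of the 19 (84.2%, against 55.9% of all genes) had a ratio below 0, with a median log2 ratio of −0.36. The summed signal of the 19 was 18027 in the control and 15884 in phosphate. The brightest, Lyz2 and Ctss, had log2 ratios of −0.03 and −0.36, the lowest, Aif1 and Mrc1, −0.80 and −0.79, and the highest, Cd14 and Fcgr1, 1.21 and 0.45. The part of macrophage RNA in the members' lower signals was not tested.

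**Figure D4:**
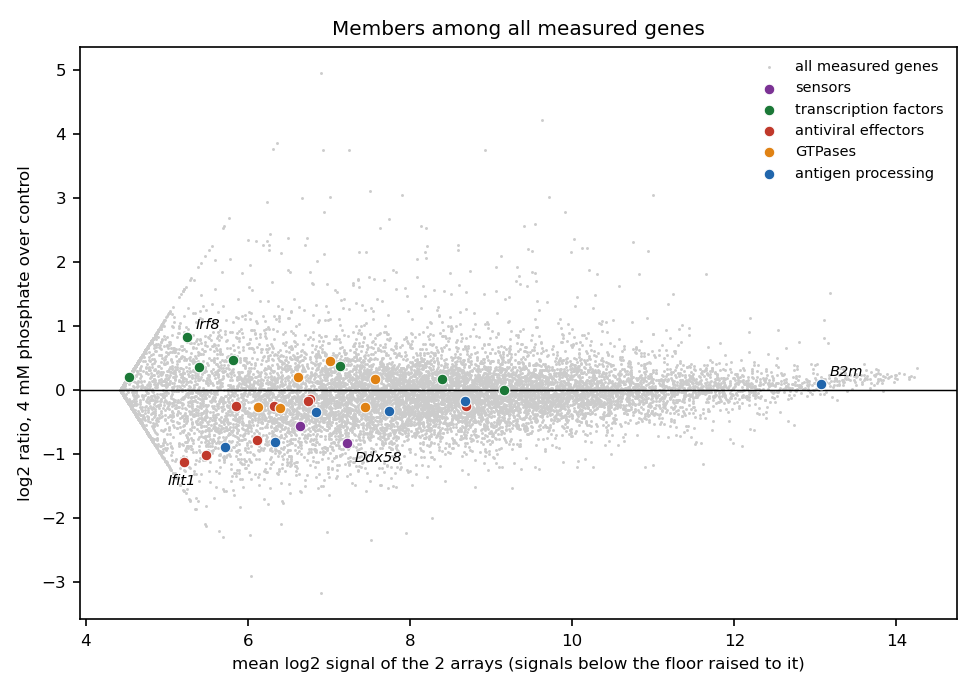
Log2 ratio of 4 mM phosphate over control (vertical axis) against the mean log2 signal of the 2 arrays (horizontal axis) for all 12241 measured genes in grey, with the 29 members coloured by role. The members lie within the cloud of other genes of like signal, with Ifit1 (−1.12) and Irf8 (0.83) near the floor on the left and B2m (0.09) on the right.

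The number of members counted as lower was 6 as reported and also after quantile normalization or loess correction. It was 8 of 33 with no floor, against 18.2% of all genes, and 7 of 32 with the floor at the 35th percentile, against 13.2%. With the floor at the 65th percentile it was 2 of 22, against 9.46%. A reference outside the genes changed it most. The 24 probe sets for poly-A spikes, bacterial RNAs added before labelling, had higher signals in phosphate in all cases, by a median of 0.46 in log2 ratio. After rescaling to make the spikes equal, every log2 ratio moved by −0.46, the median of all genes included. Then 18 of 29 members were at least 1.5-fold lower, against 43.1% of all genes, and none was higher, against 2.06%. At 2-fold, 7 were lower, against 14.1% of all genes, and none was higher, against 1.05%. This shift is the same for every gene, so the members' median stayed at −0.19 from the median of all genes. After quantile normalization or loess correction that distance was −0.11 and −0.12. Ddx58, Ifit1, Usp18, Psmb9, Tap1 and Oas1a, the 6 members at least 1.5-fold lower, had ratios below 0 under every setting in which they were measured. With the floor at the 65th percentile, though, Ifit1 and Usp18 were not measured and Psmb9 was at −0.03. These 6 were picked for low ratios on the same 2 arrays, and scaling to the spikes lowers every ratio. Their kept sign is therefore no independent support.

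**Figure D5:**
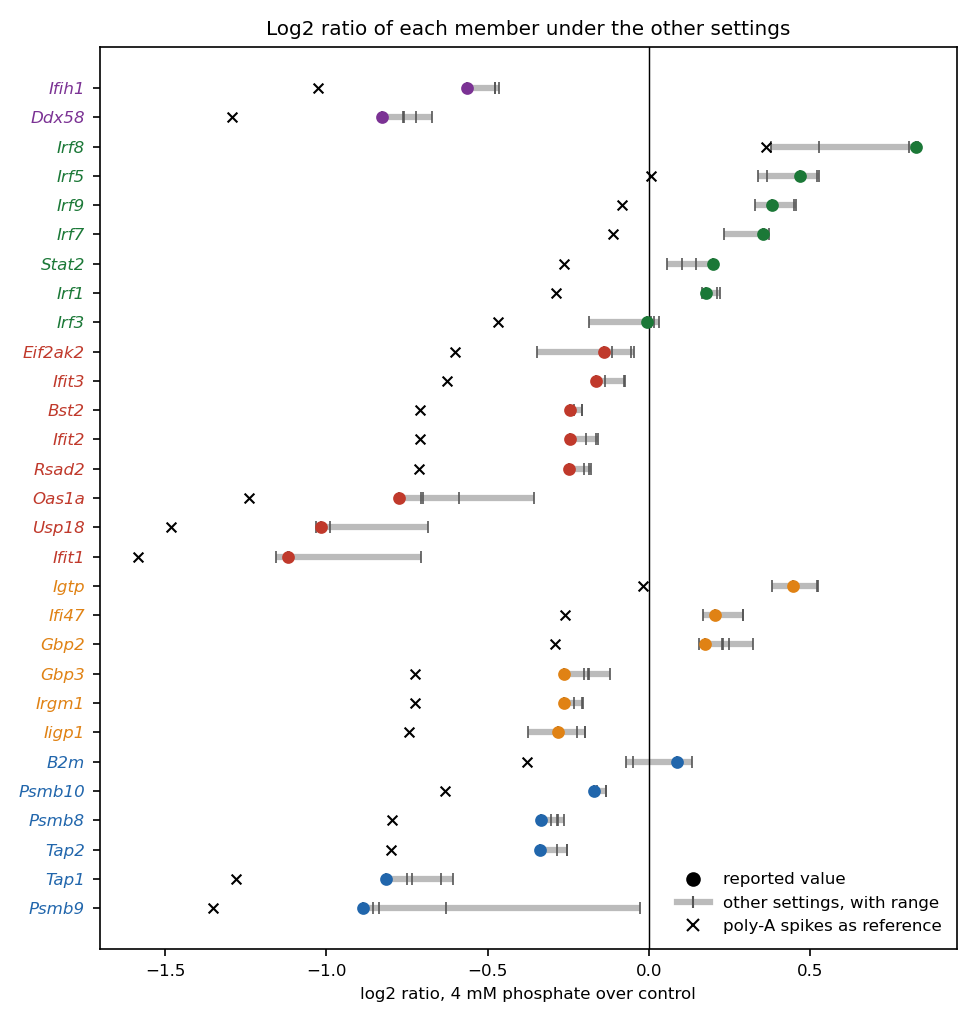
Log2 ratio of each measured member (horizontal axis) as reported (coloured circles), under the other settings (grey bars with ticks) and with poly-A spikes as the reference (crosses). The crosses lie 0.46 to the left of the circles, leaving Irf8 (0.36) and Irf5 (0.01) above 0, and the widest grey bar is that of Psmb9.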

How the data were processed

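The members, lists and tests were chosen with earlier results of these data known. RNA of 2 cultures was hybridised to Affymetrix mouse arrays, 100 ng each, per the labels' protocols. Each probe set has 1 deposited intensity per array, linear and not logged, which the authors computed with MAS5 (GCOS 1.4), as the submitters' processing notes state. This method subtracts background and applies 1 scaling factor to an array; the trimmed mean was 200.001 on both arrays, so a change in total mRNA per cell would not show. Dim signals are noisy in MAS5.

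Genes were named from probe sets annotated with 1 gene (34945 of 45037 probe sets; 932 named several and 9160 none), with symbols checked by identifier against the RefSeq table of GRCm38.p6, where all 54 member probe sets matched and 0 symbols changed. Signals below the pooled median (21.5) were raised to it, and log2 ratios are phosphate minus control. Each gene took its brightest probe set (highest mean log2 signal, the main probe set), and a gene was measured if this lay above the floor on at least 1 array. With 1 array per group, genes were counted past 1.5-fold and 2-fold and no test was run. Technical SD came from probe sets of the same gene above the floor on both arrays. Any member could be named. From each wider list came the 2 highest and 2 lowest measured genes and those at least 2-fold different, and from marker lists also the 2 brightest. Promoter windows came from RefSeq (GRCm38.p6). The alternatives were no floor, a floor at the 35th or 65th percentile, the floor added as a pseudocount, quantile normalization, loess correction, poly-A spikes as reference, the median of a gene's probe sets, and leaving out probe sets ending in _x_at or _s_at. Scripts used Python 3.11.15, numpy 2.4.6 and pandas 2.3.3 and were tested on simulated data.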

Additional observations from a re-analysis of the deposited data

Results flagged for a closer look

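The manufacturer's spikes enter no comparison of genes. The 24 poly-A spike probe sets all gave more signal in phosphate, by log2 ratios of 0.20 to 0.65 with 0.46 as the median, and the 18 hybridisation spike probe sets had a median of 0.23.

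Probe sets that name several genes were left out of all counts, and 3 that include a gene of the wider lists were at least 2-fold higher in phosphate and 1 was at least 2-fold lower. The lower one, naming the non-classical MHC class I gene H2-T23 and a pseudogene, was 44.0 in the control and below the floor in phosphate, at least 2.05-fold lower. The 3 higher ones read interferon-inducible DNA-binding genes of the HIN-200 family. A probe set naming Mndal, Ifi211, Ifi205 and Ifi204 went from 154 to 429, a log2 ratio of 1.48 (2.79-fold), and a probe set naming Ifi211 and Ifi205 from 436 to 1087, a log2 ratio of 1.32 (2.50-fold). The remaining one, naming Ifi203 with related loci, was below the floor in the control and 43.5 in phosphate, a log2 ratio of at least 1.02. The probe set naming only Ifi203 went the other way, from 32.7 in the control to below the floor in phosphate, at least 1.52-fold lower.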

How the results depend on the processing

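Of the 29 members' log2 ratios, all moved by more than their technical SD when scaled to the poly-A spikes, and 1 each with the floor at the 65th percentile, when probe sets were summarised by their median and when those ending in _x_at or _s_at were left out. No member at least 1.5-fold different changed sign, but these members were picked by their ratios on the same 2 arrays. The count at least 1.5-fold lower (6) became 8 with no floor, 7 with the floor at the 35th percentile, 2 with the floor at the 65th percentile and 18 with the spikes. The count at least 2-fold lower (2) became 0 with the floor at the 65th percentile or a pseudocount, 1 after loess correction, 3 with no floor and 7 with the spikes. The 1 member at least 1.5-fold higher, Irf8, became 0 with the floor at the 65th percentile, the pseudocount, the spikes or the median of probe sets. The median of the members (−0.25) became −0.71 with the spikes and lay between −0.25 and −0.16 otherwise. A higher floor leaves fewer members measured (22) and bounds the ratio of dim genes; a pseudocount shrinks it. Of the 29 members, 15 had a dimmer signal below 100, where the technical SD was 0.42. No paired analysis was possible because each group has 1 array.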

Other observations

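Further probe sets that name several genes touch the same families. The probe set shared by Isg15, the ubiquitin-like protein that Usp18 removes, and Gm9706 had 250 in the control and 214 in phosphate, a log2 ratio of −0.22. Uba7, which encodes the enzyme that activates ISG15, is read by probe sets naming only it and was counted among the other interferon-induced genes. It is named here after its values were seen. Uba7 had 85.3 and 47.0 (log2 ratio −0.86), with its 3 probe sets between −0.99 and −0.08. The GTPase probe set naming Tgtp1 and Tgtp2 had 38.1 and 74.4, a log2 ratio of 0.96. The brighter probe set naming H2-T23 and a pseudogene had 645 and 413, a log2 ratio of −0.64. Of 2 probe sets naming the same 9 interferon alpha genes, Ifna1 among them, 1 had 0.973 in the control and 22.3 in phosphate, just above the floor, and the other had 15.2 and 20.6, below it on both arrays. Psme2, an interferon-induced proteasome activator, shared its probe set with Psme2b, at a log2 ratio of 0.04.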
